A study of Mus musculus with 24 samples.

Results

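The thioredoxin and glutaredoxin system was followed through 10 genes, *Txn1*, *Txn2*, *Txnrd1*, *Txnrd2*, *Txnip*, *Srxn1*, *Glrx*, *Glrx2*, *Glrx3* and *Glrx5*, chosen by symbol from 55414 genes in the count table, of which 25030 had a count. Their RNA was counted in Tconv CD4+ cells, splenic CD4+ CD25- cells that the labels call TE. The cells came from conplastic mice, which share C57BL/6J (B6) nuclear DNA and carry the mitochondrial DNA of either B6 (genotype labelled WT, here mtDNA-B6) or NZB (genotype labelled NZB, here mtDNA-NZB). Cells of each haplotype were resting (RES) or activated (ACT) for 72 h with CD3/CD28 beads, at 1 bead per cell, and IL-2, a growth factor of T cells, which gave 24 libraries, 6 in each of 4 groups. Most experiments of the study used males aged 2 to 3 months, and the labels give no age or sex for these libraries. The cells were enriched on magnetic columns, by removal of other splenocytes and then of CD25+ cells. The labels do not say which libraries came from the same mouse, so p-values measure the spread between these samples, part of which may be technical.

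Thioredoxins reduce disulfide bonds in other proteins with a pair of cysteines, and are themselves recharged with electrons from NADPH by thioredoxin reductases, which are selenoproteins. TXN1 and TXNRD1 work in the cytosol and nucleus, and TXN2 and TXNRD2 in mitochondria. TXNIP binds reduced thioredoxin and inhibits it, and also restrains glucose uptake. Sulfiredoxin, the product of *Srxn1*, restores peroxiredoxins whose cysteine was overoxidized. Glutaredoxins use glutathione in place of thioredoxin reductase: GLRX and GLRX2 remove glutathione from protein cysteines, while GLRX3 and GLRX5 carry iron-sulfur clusters, GLRX5 in mitochondria. In T cells, thioredoxin supplies electrons to ribonucleotide reductase when cells divide.

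The catalytic sites show how the members divide. A coding stretch around each site is printed below from the GRCm39 transcripts, 5′ to 3′ on the strand of the gene, with the codons of the active-site residues in capitals (TGT and TGC encode cysteine, AGC serine and, in the reductases, TGA encodes selenocysteine).
Txn1: acgtggTGTggacctTGCaaaatg
Txn2: cagtggTGTggccccTGCaagatc
Glrx: cccaccTGCccctacTGCagaaag
Glrx2: acatccTGCtcttacTGTtccatg
Glrx3, first glutaredoxin domain: ccacgcTGTggtttcAGCaagcag
Glrx3, second glutaredoxin domain: gcaaaaTGTggattcAGCaaacaa
Glrx5: ccccagTGCggcttcAGCaacgcc
Txnrd1: tctggcTGCTGAggt
Txnrd2: actggtTGCTGAggc
Srxn1: gggggcTGCcaccgctatgca
The thioredoxins and *Glrx* have codons of 2 cysteines separated by those of 2 other residues. *Glrx2* has the same spacing, with a codon for serine directly after the first cysteine. *Glrx3* and *Glrx5* have a serine codon in place of the second cysteine, and near the end of both reductases a cysteine codon is followed by TGA and a last glycine codon. The *Txn1* site is in a coding exon at chr4:57951815-57951838 (minus strand), the *Glrx* site at chr13:75988148-75988171, the *Glrx2* site at chr1:143620824-143620847, the second *Glrx3* site at chr7:137064693-137064716, the *Srxn1* site at chr2:151950987-151951007, the *Glrx5* site at chr12:104999139-104999162, and the reductase ends lie at chr10:82731862-82731876 (*Txnrd1*) and chr16:18296513-18296527 (*Txnrd2*), all in GRCm39. All of these but *Txn1* are on the plus strand. The sites of *Txn2* and the first of *Glrx3* span an intron. TXNIP is no disulfide reductase and has no such site.

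Libraries held from 51409 to 6449395 UMI counts (unique molecule identifiers count each captured RNA molecule once). In the smallest library, mtDNA-NZB resting replicate 2, a single count is worth 16.7 CPM (UMI counts scaled to a common library size of 1e+06), so counting error weighs most on the members there. The T cell markers *Cd3e*, *Cd3d*, *Cd3g*, *Cd4*, *Cd5* and *Lck* were detected in every group, with sums of 1930 to 3480 CPM over all libraries. Summed activation markers (*Il2ra*, *Tnfrsf4*, *Tnfrsf9*, *Mki67*, *Tfrc*) were 76.7 to 264 CPM in resting and 402 to 772 CPM in activated libraries, which did not overlap. Markers of other cells were present in every group. B cell markers summed to 5660 to 17100 CPM at rest and 1090 to 6020 CPM after activation. This sum was carried by *Ighm*, which was called lower in each haplotype (-1.58 and -2.11), while *Cd79a*, *Cd79b* and *Ms4a1* were not called, with log2 fold changes of -0.40 to 1.17. Myeloid markers summed to 452 to 2790 CPM in resting and 10.8 to 109 CPM in activated libraries, granulocyte markers to 405 to 20200 and 7.41 to 177 CPM, and erythroid markers to 91.9 to 7180 and 16.2 to 171 CPM, and 5 of 5, 8 of 8 and 6 of 7 of these were called lower in each haplotype. CD8 T cell markers, of which 2 of 2 were called higher in each haplotype, summed to 16.7 to 141 CPM at rest and 81.5 to 531 CPM after activation, platelet markers (*Pf4* called higher in each haplotype) to 7.24 to 50.2 and 17.3 to 485 CPM, NK markers to 50.2 to 178 and 77.2 to 502 CPM, and Treg markers to 16.7 to 31.8 and 12.9 to 45.8 CPM. The NK markers went both ways: *Klrb1c* was called lower in each haplotype (-1.995 and -2.79). *Nkg7* was called higher in mtDNA-B6 cells (0.99) and had 0.71 (adjusted p = 0.0721) in mtDNA-NZB cells. Of the Treg markers, *Ikzf2* was called lower in mtDNA-B6 cells (-0.88) and *Foxp3* higher in mtDNA-NZB cells (0.67). No marker of these lists was at 0 over a whole group except *Ppbp* of platelets in resting mtDNA-B6 cells. In bulk RNA, fewer cells of a type and less RNA per cell cannot be told apart, and the part of these cells in the results below was not tested. Libraries also fell into 3 sets of 8 by the ratio of their total in a second, larger count table, taken here as reads before removal of UMI duplicates although the sources used here do not describe it, to their UMI total (1.88 to 1.96, 2.11 to 2.24 and 2.68 to 2.80). Of these, 5 of 6 activated mtDNA-B6 libraries and no resting mtDNA-B6 library were in the first set, so in mtDNA-B6 cells the set and the state largely coincide. The haplotypes were unevenly spread over the sets as well. At rest the 3 sets held 0, 4 and 2 mtDNA-B6 and 1, 1 and 4 mtDNA-NZB libraries. After activation they held 5, 1 and 0 mtDNA-B6 and 2, 2 and 2 mtDNA-NZB libraries. Differences between haplotypes, and of their responses, are therefore partly confounded with the set.

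The first comparison asks what activation does to the 10 genes within each haplotype. All 10 passed the filter on low counts among 10566 genes tested. In mtDNA-B6 cells, *Txn1*, *Txnrd1*, *Glrx* and *Glrx3* rose and *Txnrd2*, *Txnip* and *Glrx5* fell, 7 of 10 called at an adjusted p of at most 0.05 in edgeR's quasi-likelihood test, where 46.9% of all genes were called (22.4% higher and 24.5% lower). In mtDNA-NZB cells, *Txn1*, *Txn2*, *Txnrd1*, *Glrx*, *Glrx2* and *Glrx3* rose and *Txnip* fell, again 7 of 10, where 53.5% of all genes were called (25.2% higher and 28.4% lower). The median log2 fold change of the 10 genes was 0.37 in mtDNA-B6 cells, beside -0.03 over all genes, and 0.78 in mtDNA-NZB cells, beside -0.06. Where a change of 1 or more on the log2 scale was also required, *Txn1* and *Glrx* remained of the members in mtDNA-B6 cells, where 17.7% of all genes were called, and *Txn1*, *Glrx* and *Txnip* in mtDNA-NZB cells, where 23.4% were. With the library set as a term, *Txn1*, *Txnrd1*, *Txnrd2*, *Glrx* and *Glrx3* were called in mtDNA-B6 cells, 5 of 10, where 33.4% of all genes were. Within the set that holds both states (4 resting libraries against 1) the difference in mean log2 level was 0.76 for *Txnrd1*, 1.57 for *Glrx* and 0.92 for *Glrx3*. The 2 activation comparisons share no library.

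**Figure D1:**
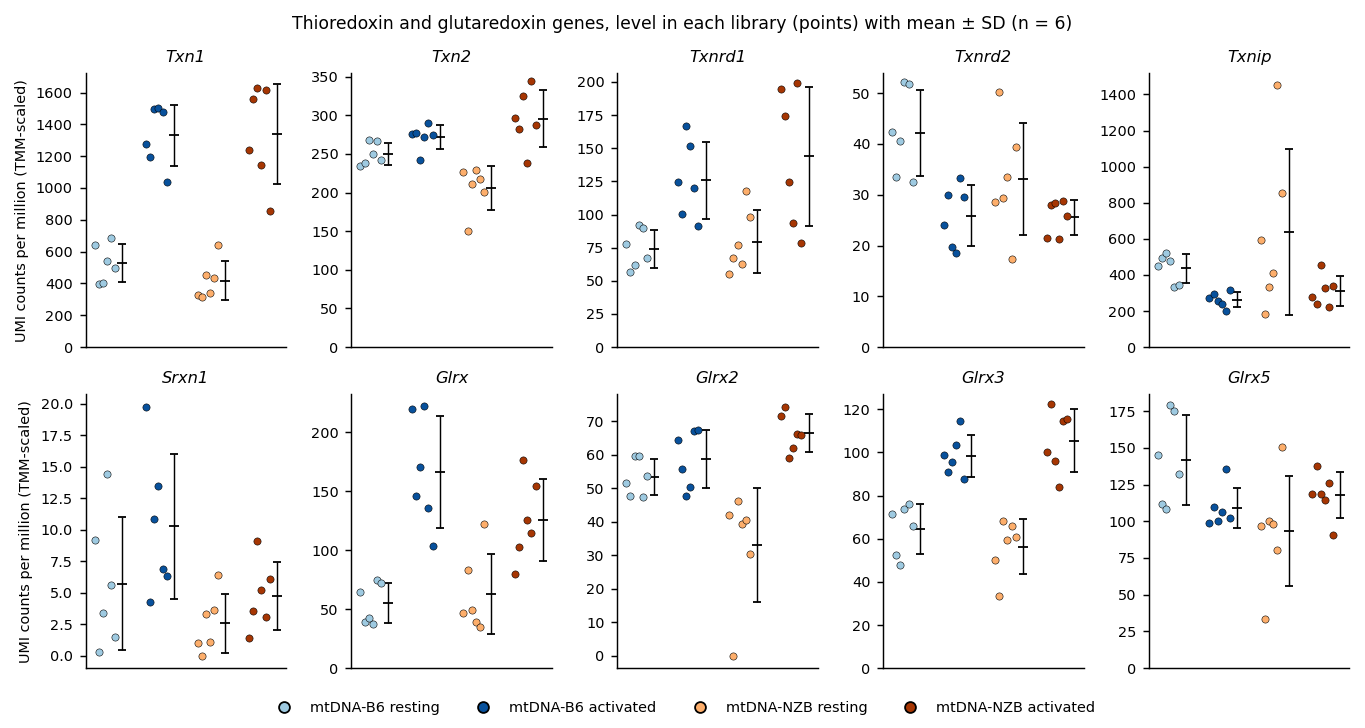
Level of each gene in CPM, scaled by TMM (vertical axes, linear), by library (points) and group, with the mean ± SD of 6 libraries. *Txn1* and *Glrx3* of activated cells lie above all resting libraries of their haplotype, and mtDNA-NZB resting *Txnip* spreads from 184 to 1454 CPM.

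*Txn1* (Ensembl ENSMUSG00000028367, chr4:57934208-57956424), cytosolic thioredoxin, was the most abundant member, at rank 153 of 10566 genes by mean level. A 3′-end method counts each transcript once at its end, so such levels are not divided by length. In resting mtDNA-B6 cells it stood at 394 CPM in the lowest, 519 in the median and 688 in the highest library, and in activated cells at 1038, 1379 and 1503 CPM. mtDNA-NZB libraries had 318, 386 and 643 CPM at rest and 855, 1400.1 and 1627 CPM after activation. Every activated library was above every resting library of its haplotype, as were those of 15.4% of all genes tested in mtDNA-B6 and 12% in mtDNA-NZB cells. The log2 fold change was 1.33 (SE 0.18, adjusted p = 1.79e-06) in mtDNA-B6 and 1.65 (SE 0.19, adjusted p = 8.18e-08) in mtDNA-NZB cells, and it was between 1.26 and 1.42 and between 1.58 and 1.82 without each library in turn. Within the sets of libraries the difference in mean log2 level was 1.60 in mtDNA-B6 cells (4 resting libraries against 1, the set with both states) and 1.37, 1.64 and 2.04 in mtDNA-NZB cells, with 1 to 3 libraries a state and the smallest left out. The end of *Txn1* overlaps the lncRNA *Gm42293* on the other strand, and strand use in the counting is not given in the sources used here.

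*Txn2* (chr15:77799247-77818565), the mitochondrial thioredoxin, ranked 547 by level. It had 235, 246 and 269 CPM (lowest, median, highest) in resting and 243, 275 and 291 CPM in activated mtDNA-B6 cells, which overlap. Levels with mtDNA-NZB were 151, 214 and 229 CPM at rest and 238, 292 and 345 CPM after activation, which do not overlap. The log2 fold change was 0.48 (SE 0.09, adjusted p = 0.000136) in mtDNA-NZB cells and 0.12 (SE 0.09, 95% interval -0.07 to 0.31, adjusted p = 0.282) in mtDNA-B6 cells.

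Of the reductases, one rose in both haplotypes and the other fell in mtDNA-B6 cells. *Txnrd1* (chr10:82669785-82733546) of the cytosol had 56.3, 72.2 and 91.9 CPM in resting and 91.1, 122 and 167 CPM in activated mtDNA-B6 cells. With mtDNA-NZB there were 54.8, 72.04 and 118 CPM at rest and 78.5, 149 and 199 CPM after activation. It rose by 0.76 on the log2 scale (SE 0.22, adjusted p = 0.00562) in mtDNA-B6 and by 0.81 (SE 0.23, adjusted p = 0.0044) in mtDNA-NZB cells, with some overlap between states in both. Its mtDNA-B6 call was lost with the library set as a term in 21 libraries (0.62, adjusted p = 0.0766), which leave out mtDNA-NZB resting replicates 2 and 6 and activated replicate 6.

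*Txnrd2* (chr16:18245134-18297823), which recharges TXN2 in mitochondria, had 32.5, 41.5 and 52.2 CPM in resting and 18.6, 26.8 and 33.4 CPM in activated mtDNA-B6 cells, which overlap in a narrow range. mtDNA-NZB libraries had 17.3, 31.4 and 50.2 CPM at rest and 21.2, 26.9 and 28.7 CPM after activation, and the activated libraries lay inside the range of the resting ones. It fell by 0.71 on the log2 scale in mtDNA-B6 cells (SE 0.17, adjusted p = 0.00149), and the value in mtDNA-NZB cells was -0.22 (SE 0.19, 95% interval -0.60 to 0.17, adjusted p = 0.337). The difference in mtDNA-B6 cells was -0.31 within the library set that holds both states (4 resting libraries against 1), and the fold change was -0.63 (adjusted p = 0.0354) with the set as a term and -0.65 (adjusted p = 0.0145) without the 4 resting libraries above 3000 CPM of granulocyte markers, mtDNA-B6 replicates 1, 5 and 6 and mtDNA-NZB replicate 6.

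*Txnip* (chr3:96465267-96469201), the thioredoxin inhibitor, ranked 341 by level. It had 335, 465 and 524 CPM in resting and 198, 263 and 319 CPM in activated mtDNA-B6 cells, and every activated library was below every resting library, as for 16.3% of all genes tested. Levels with mtDNA-NZB were 184, 503 and 1454 CPM at rest and 224, 303 and 452 CPM after activation, with overlap. Resting mtDNA-NZB libraries varied most: replicate 5 had 1454 CPM from 3187 counts, and the smallest library had 184 CPM from 11 counts. *Txnip* fell by 0.74 (SE 0.28, adjusted p = 0.0333) on the log2 scale in mtDNA-B6 cells and by 1.10 (SE 0.29, adjusted p = 0.00207) in mtDNA-NZB cells. Without mtDNA-NZB resting replicate 5 the latter was -0.70 (adjusted p = 0.0147), and it lost its call with a block by the numbers that recur across states in the sample descriptions (-0.58, adjusted p = 0.0749, and -0.31, adjusted p = 0.314, in 21 libraries). The call in mtDNA-B6 cells was lost in 7 of 24 fits that left out 1 library (adjusted p of 0.0508 to 0.0857 without activated replicate 3, 4 or 5 or resting replicate 1, 2, 3 or 4), with the second count table (-0.66, adjusted p = 0.0562) and with the library set as a term (-0.53, adjusted p = 0.325). Within the set that holds both states it was -1.29 (4 resting libraries against 1), and in mtDNA-NZB cells -0.27, -1.09 and -1.17.

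**Figure D2:**
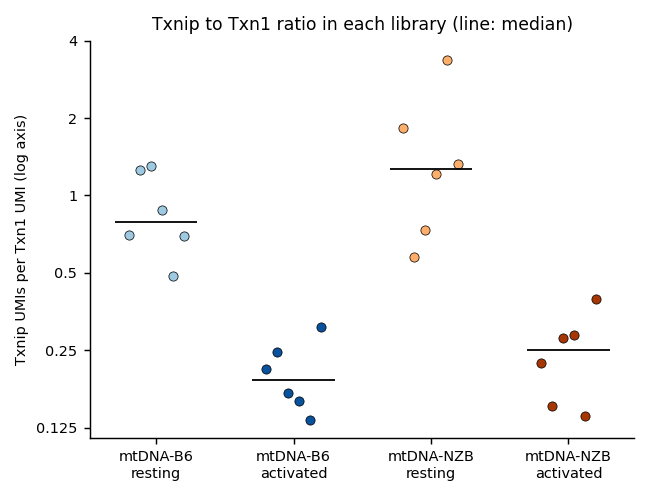
*Txnip* UMI counts per *Txn1* UMI count (vertical axis, log scale) in each library (points), with the group median (line). Activated libraries reach at most 0.395 and resting libraries at least 0.487.

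Since the inhibitor and its target are counted in the same library, their ratio needs no scaling between libraries. There were 0.487 to 1.30 *Txnip* counts per *Txn1* count in resting mtDNA-B6 libraries (median 0.791) and 0.134 to 0.307 in activated ones (median 0.191). In mtDNA-NZB libraries the ratio was 0.579 to 3.37 at rest (median 1.27) and 0.139 to 0.395 after activation (median 0.251). Resting and activated libraries did not overlap in either haplotype. The ratio shows that the RNAs did not change by the same factor, and not by itself which of them moved. *Txn1* alone did not overlap between states in either haplotype, while *Txnip* overlapped in mtDNA-NZB cells, so the ratio is no separate result.

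*Srxn1* (chr2:151947436-151957687), sulfiredoxin, was the lowest member, at rank 9075, with 0 to 78 counts per library. It had 0.33, 4.5 and 14.4 CPM in resting and 4.27, 8.87 and 19.8 CPM in activated mtDNA-B6 cells. With mtDNA-NZB there were 0, 2.23 and 6.38 CPM at rest and 1.43, 4.39 and 9.12 CPM after activation. The states overlapped in both haplotypes. The log2 fold change was 0.85 (SE 0.49, 95% interval -0.16 to 1.86, adjusted p = 0.159) in mtDNA-B6 and 0.79 (SE 0.61, 95% interval -0.46 to 2.05, adjusted p = 0.28) in mtDNA-NZB cells. Resting mtDNA-B6 libraries ranged from 1 to 37 counts of *Srxn1*. It was called in mtDNA-B6 cells without resting replicate 4 (1.29, adjusted p = 0.0378).

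Among the glutaredoxins, *Glrx* (chr13:75987974-76002178), the cytosolic enzyme with the cysteine pair, rose in both haplotypes. It had 37.4, 54.0 and 74.5 CPM in resting and 104, 158 and 223 CPM in activated mtDNA-B6 cells, with no overlap. mtDNA-NZB libraries had 34.7, 48.3 and 122 CPM at rest and 80.1, 120.1 and 177 CPM after activation, and 2 resting libraries, replicates 2 and 6, reached into the activated range. The log2 fold change was 1.58 (SE 0.27, adjusted p = 2.82e-05) in mtDNA-B6 and 1.10 (SE 0.28, adjusted p = 0.00181) in mtDNA-NZB cells. Resting libraries above 3000 CPM of granulocyte markers had the higher *Glrx* levels in mtDNA-B6 cells, 65.0 to 74.5 CPM beside 37.4 to 43.0 CPM in the other 3, and in mtDNA-NZB cells replicate 6 had 122 CPM. Without these 4 libraries the log2 fold change was 2.12 (adjusted p = 8.53e-07) and 1.60 (adjusted p = 3.07e-06).

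*Glrx3* (chr7:137039283-137073907), which works with BOLA2 in cytosolic iron delivery, had 47.7, 68.6 and 76.1 CPM in resting and 87.5, 97.1 and 115 CPM in activated mtDNA-B6 cells. Levels with mtDNA-NZB were 33.4, 60.2 and 68.2 CPM at rest and 84.1, 107 and 122 CPM after activation. No library overlapped between states in either haplotype. It rose by 0.61 (SE 0.12, adjusted p = 0.000229) and 0.82 (SE 0.13, adjusted p = 1e-05) on the log2 scale.

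*Glrx2* (chr1:143592076-143626588), with mitochondrial and other forms, had 47.6, 52.7 and 59.7 CPM in resting and 47.7, 60.1 and 67.4 CPM in activated mtDNA-B6 cells, which overlap. With mtDNA-NZB there were 0, 39.9 and 46.1 CPM at rest and 59.0, 66.1 and 74.4 CPM after activation, which do not. The 0 belongs to the smallest library, where 3 counts would be 50.2 CPM. The log2 fold change was 0.77 (SE 0.14, adjusted p = 7.11e-05) in mtDNA-NZB cells, and 0.78 without that library, and 0.14 (SE 0.13, 95% interval -0.13 to 0.41, adjusted p = 0.399) in mtDNA-B6 cells. The end of *Glrx2* overlaps the protein-coding gene *Ro60* on the other strand.

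*Glrx5* (chr12:104998939-105009165), the mitochondrial iron-sulfur carrier, had 108, 138 and 179 CPM in resting and 99.1, 104 and 136 CPM in activated mtDNA-B6 cells, which overlap. mtDNA-NZB libraries had 33.4, 97.5 and 150.4 CPM at rest and 90.8, 119 and 138 CPM after activation, also with overlap. It fell by 0.38 (SE 0.16, adjusted p = 0.0453) on the log2 scale in mtDNA-B6 cells, and the value in mtDNA-NZB cells was 0.20 (SE 0.16, 95% interval -0.14 to 0.53, adjusted p = 0.314). The fall in mtDNA-B6 cells was close to the threshold, and was lost in 15 of 24 fits that left out 1 library (adjusted p of 0.0502 to 0.125), in DESeq2 (adjusted p = 0.0903) and with the library set as a term (-0.22, adjusted p = 0.42). Within the set that holds both states the difference was 0.03 (4 resting libraries against 1). That 1 library, activated replicate 5, had the highest *Glrx5* of its group (135.5 CPM) and is flagged below as far from the others. *Glrx5* is also made in quantity by erythroid cells, where iron is built into heme. Of the resting mtDNA-NZB libraries, replicate 6 had the most *Glrx5* (150.4 CPM) and the most granulocyte (20190 CPM) and erythroid (3649 CPM) marker RNA. In resting mtDNA-B6 cells these did not coincide. Replicate 4 had the most *Glrx5* (179.1 CPM), with 1004 CPM of granulocyte and 2029 CPM of erythroid markers. Replicate 6, highest in granulocyte markers (7390 CPM), had 132.0 CPM of *Glrx5*, and replicate 1, highest in erythroid markers (7176 CPM), had 144.9 CPM. The part of these cells in *Glrx5* was not tested. Without the 4 resting libraries high in granulocyte markers, *Glrx5* changed by -0.24 (adjusted p = 0.284) in mtDNA-B6 cells and rose by 0.42 (adjusted p = 0.0315) in mtDNA-NZB cells.

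**Figure D3:**
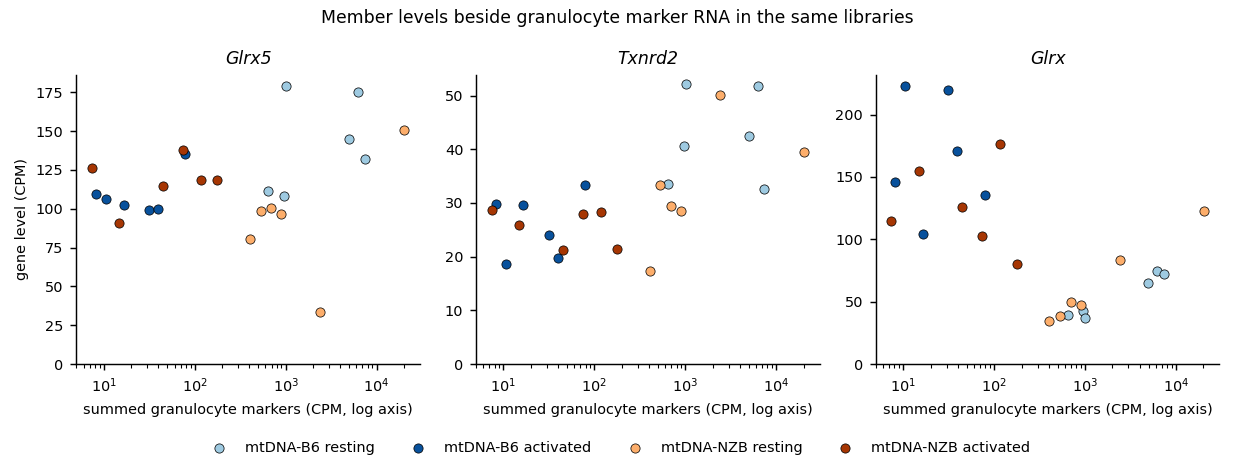
Level of *Glrx5*, *Txnrd2* and *Glrx* (CPM, linear) against the summed granulocyte markers of the same library (CPM, log axis), with 1 point for each of 24 libraries coloured by group. Activated libraries lie at or under 177 CPM of these markers and resting libraries at or above 405 CPM.

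**Figure D4:**
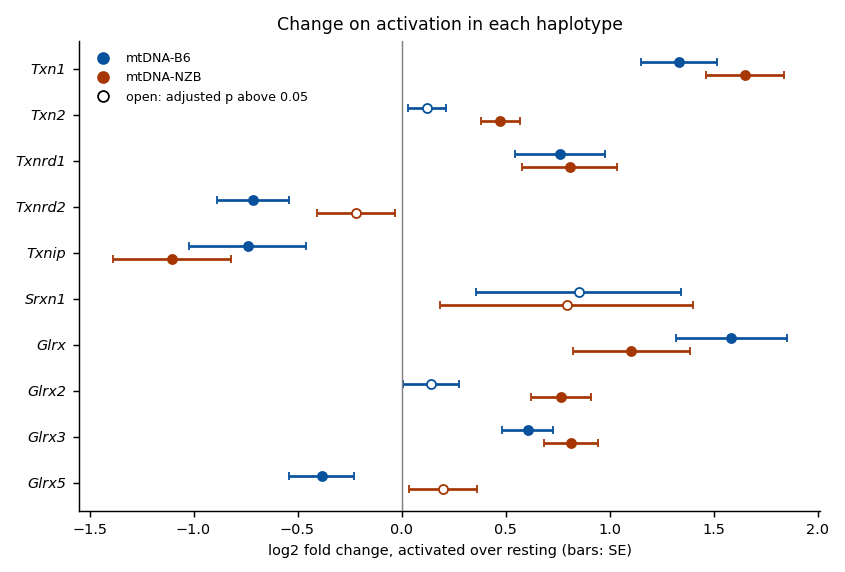
Log2 fold change of each gene on activation with its SE (horizontal axis), for mtDNA-B6 and mtDNA-NZB cells, filled where the adjusted p was at most 0.05. *Txn1*, *Txnrd1*, *Txnip*, *Glrx* and *Glrx3* are filled in both haplotypes.

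A call in one haplotype and not in the other does not show a difference, so the response to activation was compared between haplotypes directly, as the log2 fold change in mtDNA-NZB minus that in mtDNA-B6 cells. No member passed, where 0% of all 10566 genes were called in edgeR (1512 genes had an unadjusted p under 0.05, and DESeq2 called 1 gene). The differences of the mitochondrial members were 0.63 for *Glrx2* (95% interval 0.23 to 1.03, adjusted p = 0.209), 0.58 for *Glrx5* (0.12 to 1.05, adjusted p = 0.249), 0.50 for *Txnrd2* (-0.03 to 1.02, adjusted p = 0.375) and 0.35 for *Txn2* (0.09 to 0.62, adjusted p = 0.238). The intervals are for single genes and not adjusted. The differences of the other members were 0.32 for *Txn1* (-0.21 to 0.85), 0.05 for *Txnrd1* (-0.60 to 0.69), 0.21 for *Glrx3* (-0.16 to 0.57), -0.36 for *Txnip* (-1.18 to 0.45), -0.48 for *Glrx* (-1.26 to 0.30) and -0.06 for *Srxn1* (-1.82 to 1.70). In 21 libraries, without mtDNA-NZB resting replicates 2 and 6 and activated replicate 6, the difference for *Glrx5* was 0.77 and was called (adjusted p = 0.0483), where 113 genes (1.04%) were called in all. It was not called with the library set as a further term.

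**Figure D5:**
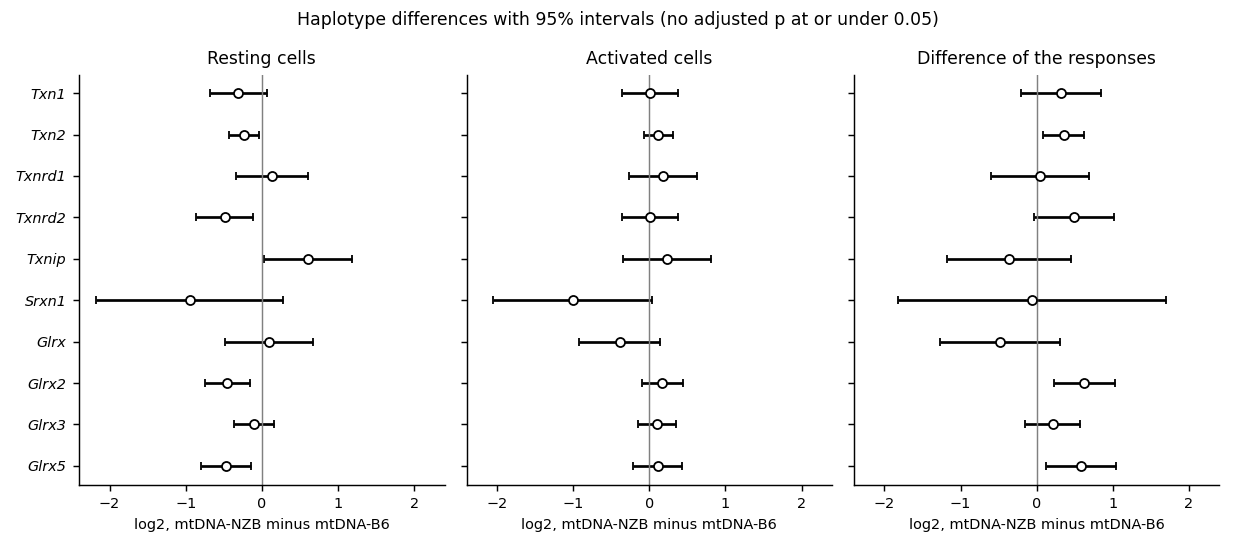
Difference between haplotypes, mtDNA-NZB minus mtDNA-B6, in log2 units with 95% intervals (horizontal axes), at rest, after activation and in the response. At rest, intervals of *Txn2*, *Txnrd2*, *Glrx2* and *Glrx5* lie below 0 and that of *Txnip* above 0. In the response, those of *Txn2*, *Glrx2* and *Glrx5* lie above 0. Of 10566 genes, 2196 at rest and 1512 in the response had an unadjusted p under 0.05 in edgeR. None of the 10 genes is called in any panel.

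At rest, the haplotypes were compared in the same fit. No member was called, where 2.76% of all genes were (292 genes, with mtDNA-NZB above in 1.9% and below in 0.861%, and 1.01% past a log2 difference of 1). Of the 10566 genes tested, 2196 had an unadjusted p under 0.05 in edgeR. This comparison and the one before share the resting libraries. The members with the smallest p were *Glrx2* at -0.45 (SE 0.14, unadjusted p = 0.00367, adjusted p = 0.0706) and *Glrx5* at -0.47 (SE 0.16, unadjusted p = 0.00727, adjusted p = 0.0946) in edgeR, both lower in mtDNA-NZB cells. *Txnrd2* was at -0.49 (95% interval -0.86 to -0.11, adjusted p = 0.126) and *Txn2* at -0.24 (-0.43 to -0.04, adjusted p = 0.147). Median sums of marker RNA of other cells also differed at rest, with overlapping ranges, but 0 markers of these lists were called. Single granulocyte markers went both ways (log2 difference -0.57 to 1.89, median 0.09). The highest granulocyte sum, 20190 CPM, was in mtDNA-NZB replicate 6. Median sums in mtDNA-NZB against mtDNA-B6 libraries were 793 against 2980 CPM for granulocyte and 237 against 1370 CPM for erythroid markers. They were 825 against 1460 CPM for myeloid and 11500 against 10800 CPM for B cell markers. The part of these cells in the differences at rest was not tested. All resting mtDNA-NZB libraries were below all resting mtDNA-B6 libraries for *Txn2* (at most 229 CPM against at least 235 CPM) and *Glrx2* (at most 46.1 against at least 47.6 CPM), 2 of 10 members, as for 0.738% of all genes tested. The smallest library enters this count with 0 counts of *Glrx2*, where 3 counts would lie above the lowest mtDNA-B6 library. Without this library the same 2 members did not overlap, but the share of 0.738% includes it, so this count has no share beside it. *Txnip* had 0.60 (0.02 to 1.18, adjusted p = 0.22), and this fell to 0.20 without mtDNA-NZB resting replicate 5. *Glrx2* was called without mtDNA-NZB resting replicate 2 (-0.44, adjusted p = 0.0405) or replicate 3 (-0.52, adjusted p = 0.045), and *Glrx5* without replicate 6 (-0.63, adjusted p = 0.0192). In each of these 3 fits 1 member of 10 was called, where 3.64%, 5.48% and 4.94% of all genes were. Calls over all genes at rest turned on single libraries, with 0 genes called without mtDNA-NZB resting replicate 5 or mtDNA-B6 resting replicate 4, 2 without mtDNA-B6 resting replicate 1, 8 without replicate 3 and 27 without replicate 5, and no member called in these fits. With the library set as a term, over which the haplotypes are unevenly spread, 1 gene and no member was called at rest.

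After activation, the haplotypes were compared in the same way. No member was called, where 0% of all genes were (327 had an unadjusted p under 0.05, and DESeq2 called 0 genes). Mean levels of *Txn1* were 1332 ± 192 CPM in mtDNA-B6 and 1341 ± 313 CPM in mtDNA-NZB cells (SD, n = 6), a log2 difference of 0.01 with a 95% interval of -0.36 to 0.38. *Txn2* differed by 0.12 (-0.07 to 0.31), *Txnrd2* by 0.01 (-0.36 to 0.38), *Glrx3* by 0.10 (-0.15 to 0.35), *Glrx5* by 0.11 (-0.21 to 0.43) and *Glrx2* by 0.17 (-0.10 to 0.45). The intervals of *Txnrd1* (0.18, -0.27 to 0.62), *Txnip* (0.24, -0.34 to 0.82), *Glrx* (-0.39, -0.92 to 0.14) and *Srxn1* (-1.01, -2.05 to 0.04) were wider and leave room for larger differences.

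Genes whose level followed that of a member were ranked by Pearson's r over 23 libraries with at least 500000 UMI counts, as a description, since all points share the change of state and differ in depth. Nearest to *Txn1* were *Rps27l* (0.985), *Gmnn* (0.982), the inhibitor of replication licensing, and *Cks1b* (0.982), a cofactor of cyclin-dependent kinases. Once each group's mean was removed, *Psmb4* (0.94), a proteasome subunit, *Cks1b* (0.915) and *Rps27l* (0.91) were nearest. Nearest to *Txnip* were *Retreg3* (0.936), *Dedd2* (0.925) and *Rab3ip* (0.912), and with group means removed *Dedd2* (0.891), *Sesn1* (0.889), a stress-induced sestrin, and *Ccdc117* (0.885). Nearest to *Glrx* were *Slc16a3* (0.931), the lactate exporter MCT4, *Acadl* (0.925) and *Slc35a3* (0.913). With group means removed these were *Ltb4r1* (0.873), a leukotriene receptor, *Prdx5* (0.862) and *Slpi* (0.862), a protease inhibitor of granulocytes and epithelia.

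The wider pathway was read from 8 lists, described by counts beside the shares of all genes called (22.4% higher and 24.5% lower with mtDNA-B6, 25.2% higher and 28.4% lower with mtDNA-NZB). Of 16 thioredoxin-related proteins, all tested, 5 rose and 4 fell in mtDNA-B6 cells, beside 6 that rose and 3 that fell with mtDNA-NZB (median log2 fold change 0.16 and 0.33). *Nxn*, nucleoredoxin, rose by 0.76 and 0.73, and *Txndc9*, which regulates protein folding by the CCT chaperonin, by 0.72 and 0.57. *Tmx4*, a membrane thioredoxin of the endoplasmic reticulum, fell (log2 fold change -1.79 and -1.74), as did *Txnrd3*, the third thioredoxin reductase (-1.44 and -1.63).

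Among 11 tested of 13 proteins that thioredoxin reduces or restrains, 4 rose and 5 fell in mtDNA-B6 cells, beside 6 that rose and 4 that fell with mtDNA-NZB (median -0.13 and 0.39). Both subunits of the S-phase ribonucleotide reductase rose, *Rrm2* by 1.86 (SE 0.36) and 2.70 (SE 0.40) and *Rrm1* by 1.47 (SE 0.24) and 2.33 (SE 0.26) on the log2 scale. The p53-inducible subunit *Rrm2b* fell (-0.91 and -1.52), as did *Msrb2*, a mitochondrial methionine sulfoxide reductase (-1.41 and -1.004). The differences of these responses between haplotypes did not pass (adjusted p of 0.263 for *Rrm1* and 0.462 for *Rrm2*). *Prdx1* had 50 counts over all libraries and was not tested, so its level cannot be read here.

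Of 7 tested genes of NADPH production, 2 rose and 1 fell in mtDNA-B6 and 4 rose in mtDNA-NZB cells (median -0.02 and 0.42). *Mthfd2*, of mitochondrial folate metabolism, rose by 1.18 and 1.02, and *Me2*, mitochondrial malic enzyme, by 0.66 and 0.81. *Idh1*, cytosolic isocitrate dehydrogenase, fell by 0.99 in mtDNA-B6 cells and had -0.60 (adjusted p = 0.161) in mtDNA-NZB cells. Of 7 tested genes of glutathione synthesis and reduction, 0 rose and 2 fell in mtDNA-B6 cells, beside 1 that rose and 1 that fell with mtDNA-NZB (median -0.34 and -0.20). *Slc3a2*, the heavy chain of amino acid exchangers, fell (-1.24 and -1.58). *Gpx1*, a selenium-dependent glutathione peroxidase, fell by 0.89 in mtDNA-B6 cells and had -0.35 (adjusted p = 0.0965) in mtDNA-NZB cells. *Gss*, glutathione synthetase, rose by 0.44 in mtDNA-NZB cells and had 0.26 (adjusted p = 0.121) in mtDNA-B6 cells. Of 6 genes of selenoprotein synthesis, 1 rose and 1 fell in mtDNA-B6 cells, beside 1 that rose and 0 that fell with mtDNA-NZB (median -0.31 and 0.11). *Sephs1* rose by 0.73 and 1.47, and *Secisbp2*, which binds the selenocysteine insertion element, fell by 0.49 in mtDNA-B6 cells and had -0.31 (adjusted p = 0.0913) in mtDNA-NZB cells.

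Of 9 genes of the NRF2 pathway, the transcriptional programme to which *Txnrd1* and *Srxn1* belong, 1 rose and 5 fell in mtDNA-B6 cells, beside 1 that rose and 6 that fell with mtDNA-NZB (median -0.89 and -0.95). *Mafk*, a partner of NRF2, fell (-2.54 and -2.59), *Bach1*, a repressor of the same sites, fell (-1.65 and -2.515), and *Keap1*, whose product marks NRF2 for destruction, rose by 0.39 and 0.75. The end of *Mafk* overlaps *Tmem184a* on the other strand. Myeloid, granulocyte and erythroid marker RNA, whose sums are given above, was lower in activated libraries too, and its part in these values was not tested. Of the RefSeq promoters (GRCm38.p6, 250 bases before to 50 after the start), 16 windows matched the 10 members. The core TGACNNNGC of the antioxidant response element, searched on both strands, is in 12.4% of all 32851 promoters and in 2 of the 16 windows (12.5%), of 2 members, with the match in capitals.
Txnrd1: tcagaaTGACAAAGCaaaaat
Srxn1: tcactcTGACCTAGCtgccca
Both matches are on the minus strand, in the windows chr10:82858956-82859255 and chr2:152105274-152105573, and of 3 *Txnrd1* windows 1 held it. The E-box CACGTG was in 1 window of *Glrx2* and in none of the other members (1 of 16 windows, 6.25%, beside 7.15% of all promoters). A match is a description of these letters and does not show binding.

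Of 8 tested genes of the TXNIP family and its regulation, 1 rose and 2 fell in mtDNA-B6 cells, beside 0 that rose and 4 that fell with mtDNA-NZB (median -0.29 and -0.60). Of the related arrestins, *Arrdc3* (-1.89 and -2.14) and *Arrdc2* (-1.36 and -1.09) fell. *Slc2a1*, a glucose transporter that TXNIP takes from the cell surface, rose by 0.58 in mtDNA-B6 cells (adjusted p = 0.0266) and had 0.04 in mtDNA-NZB cells. Its end overlaps the lncRNA *Gm12868* on the other strand. Of 13 tested partners of GLRX3 and GLRX5 in iron-sulfur biogenesis, 2 rose and 3 fell in mtDNA-B6 cells, beside 5 that rose and 3 that fell with mtDNA-NZB (median -0.14 and 0.13). *Hscb*, a co-chaperone of cluster transfer, rose by 0.44 and 0.59, and *Bola1*, a mitochondrial partner of GLRX5, rose by 0.79 in mtDNA-NZB cells and had 0.22 (adjusted p = 0.243) in mtDNA-B6 cells. *Iba57* (-0.76 and -1.001) and *Ndor1*, a cytosolic electron donor (-0.80 in both), fell. In no list was a gene called for the difference of the responses or between activated haplotypes, and at rest 3 of 77 tested (3.9%, beside 2.76% of all genes) were called, all lower in mtDNA-NZB cells, *Gclm* (-0.98), *Mthfd1* (-0.82) and *Bola3* (-0.42), which were named after their values were seen. These 3 calls were lost, with all others at rest, without mtDNA-NZB resting replicate 5, without mtDNA-B6 resting replicate 4, and in the 12 resting libraries fitted alone. In the annotation the ends of *Gss* (*Acss2*), *Gpx1* (*Gm57050*), *Mthfd1* (*Gm40443*), *Secisbp2* (*Sema4d*), *Bola1* (*Sv2a*) and *Bola3* (*Tet3*) also overlap a gene on the other strand, given in parentheses, and the symbol *Ndor1* has 3 gene IDs that overlap on the same strand, of which the one with the most counts was used.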

How the data were processed

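RNA of Tconv CD4+ cells was measured by bulk MARS-seq, which tags transcript 3′ ends with UMIs, in 24 libraries grouped from the sample labels. Per the methods of the study and the processing notes, the authors trimmed reads with cutadapt, dropped those under 30 bases, mapped the rest with STAR to 1000-base 3′ regions of GRCm39 (Ensembl 106), counted them with htseq-count, removed UMI duplicates and corrected for saturation. The deposited values are whole-number counts per gene, not scaled to library size. A second deposited table of larger counts, taken as reads before removal of UMI duplicates though the sources used here do not describe it, served as an alternative, and its total divided by the UMI total defined the 3 library sets. Of its columns, 1 that fits no label stayed unused. The labels give an RNA input that differs from that in the methods.

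The fits used edgeR 4.0.16 and, as an alternative, DESeq2 1.42.0 under R 4.3.3 and limma 3.58.1. Values were summarised in Python 3.11.15 with matplotlib 3.10.9. Libraries were scaled by TMM and low genes removed by filterByExpr (10566 genes left). CPM values divide by the total of all counts times the TMM factor. All 4 groups were fitted together by edgeR's quasi-likelihood method. P-values were adjusted by Benjamini-Hochberg across the 10566 genes and called at 0.05, without a fold cut-off. The SE is the size of a log2 fold change divided by the square root of F, and 95% intervals use it with the fit's degrees of freedom. In data simulated for activation of mtDNA-NZB cells (10390 genes) 158 of 200 changed genes were recovered with 6 false calls. Only these genes changed in the simulation, without effects of library set or of other cells, whereas 53.5% of all genes were called in the data. The simulated numbers therefore do not give the error rates of the fits above. The members and all lists were chosen with earlier results of these data known. All members are named, and from each list the 2 largest mean rises and falls among genes called in a haplotype. Alternatives were another method, scaling, filter, count table, block, covariate, fold cut-off and other libraries. Coding stretches are from the GENCODE annotation of GRCm39.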

Additional observations from a re-analysis of the deposited data

Results flagged for a closer look

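Each member was checked for a library far from the others in 40 groups of 6 values, where chance picks out about 1 in 20 groups, and 3 were found. In resting mtDNA-NZB cells, replicate 2, the smallest library, had the lowest *Txn2*, 150.5 CPM from 9 counts, and the lowest *Glrx2*, 0 CPM from 0 counts. In activated mtDNA-B6 cells, replicate 5 had the highest *Glrx5*, 135.5 CPM, where the other libraries had at most 109.7 CPM. It is the only activated mtDNA-B6 library in the second set by the ratio of the count tables. Whether the set has a part in its *Glrx5* value was not tested.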

How the results depend on the processing

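For activation, the direction of every member held in both haplotypes under all alternatives run, except *Glrx5*, in mtDNA-NZB cells (-0.0054 with the block by description number) and, in mtDNA-B6 cells, within the library set that holds both states (0.03). The number of members called in mtDNA-B6 cells was 5 to 7 without each library in turn (42.4% to 49.3% of all genes called). It was also 5 to 7 under most settings, with shares from 19.2% (DESeq2, 25030 genes) to 56.9% (12 libraries of the groups compared). It was 4 in 21 libraries with the library set as a term (33.2% of all genes called), and 2 where a change of 1 or more on the log2 scale was required (17.7% of all genes called). In mtDNA-NZB cells it was 7 without each library in turn, 6 to 8 under most settings and 3 with that fold (23.4% of all genes). At rest it was 0 to 1 without each library in turn, and 1 in 23 libraries (*Glrx2*), 1 in 21 libraries and 1 with the set as a further term (*Glrx5*, -0.59 and -0.56), where 3.64%, 6.11% and 3.21% of all genes were called. For the difference of the responses it was 1 in 21 libraries and after activation 0 throughout. Over all genes, 292 were called at rest, 180 by DESeq2, 43 in the second count table, 72 with the block by title number, 1 with the library set as a term, 662 in 21 libraries, 78 without the 4 resting libraries high in granulocyte markers, 0 in the 12 libraries of these groups, and 0 to 587 without each library in turn. The causes of these changes were not tested.

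In mtDNA-B6 cells *Txnip* also lost its call with the set as a term in 21 libraries (-0.37, adjusted p = 0.499), and *Glrx5* with no filter, the block by title number, the smallest library left out (-0.34, adjusted p = 0.0641) and the set in 21 libraries. In mtDNA-NZB cells *Glrx5* was called in 21 libraries (0.39, adjusted p = 0.0245) and with the set as a further term (0.38, adjusted p = 0.0349).

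Apart from *Glrx5* of mtDNA-B6 cells within the library set that holds both states, directions that turned were of values not called. At rest, *Glrx* was -0.016 with the block by title number, -0.084 with the set as a term, -0.38 in 21 libraries and -0.47 there with the set, *Txnrd1* was -0.058 in the last, and *Glrx3* was 0.025 without the 4 libraries high in granulocyte markers. Without each library in turn, *Glrx* was -0.35 to 0.22 and *Txnrd1* -0.025 to 0.24. After activation, *Txn1* and *Txnrd2* were -0.0037 and -0.004 in DESeq2, -0.0033 and -0.0049 with median-of-ratios scaling, -0.027 and -0.020 with no filter, -0.0017 and -0.0030 with a stricter one, -0.00028 and -0.048 in the second table, -0.025 and -0.020 in 12 libraries, -0.063 and -0.033 with the set as a term, -0.0094 and -0.012 without the smallest library, and -0.0093 and -0.0094 without the 4 libraries. In 21 libraries with the set, *Txnrd2* was -0.016 and *Txnip* -0.13. Without each library in turn *Txn1* was -0.054 to 0.11 and *Txnrd2* -0.075 to 0.098. In the difference of the responses, *Txnrd1* was -0.012 in the second table, *Srxn1* was 0.13 with the set, 0.30 in 21 libraries, 0.59 there with the set and 0.43 without the 4 libraries, and *Glrx* was 0.077 in 21 libraries with the set. Without each library in turn *Txnrd1* was -0.078 to 0.20, *Txnip* -0.51 to 0.039 and *Srxn1* -0.50 to 0.39.

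The numbers that open the sample descriptions recur across states. By the methods, isolated T cells were split into resting and activated portions, but no label ties a number to a mouse. Same-numbered libraries deviated together by correlations of -0.158 to 0.253 over 9 pairs. These were 0.137, 0.253, 0.042, 0.159 and -0.0754 for numbers 13, 14, 16, 22 and 23 of mtDNA-B6 and -0.158 to 0.00285 for mtDNA-NZB. For number 14 each library was the best match of the other among libraries of the opposite state. This held for 13 from the resting and for 22 from the activated library only, and for no mtDNA-NZB number. Low correlations of both signs cannot tell whether same-numbered libraries came from the same mouse. The main fits left them unpaired, with a block by this number as an alternative. With a replicate block by this number 7 members were called in mtDNA-B6 and 6 in mtDNA-NZB cells (4291 and 4136 genes), where *Txnip* was -0.58 (adjusted p = 0.0749), and with the block by title number 6 and 7 members (4771 and 5400 genes). In the difference of the responses *Txnip* was 0.073 and *Srxn1* 0.13 with the first block, *Srxn1* 0.11 with the second, and in 21 libraries with the first block *Txnip* was 0.345, *Srxn1* 0.795 and *Glrx* 0.053. There *Txnip* of mtDNA-NZB cells was -0.31 (adjusted p = 0.314). The fits of 21 libraries with the set or a block and the one without the 4 resting libraries were chosen after seeing the data. *Srxn1* was not tested in the fits of 12 libraries for mtDNA-NZB activation and for rest. *Srxn1* had at most 78 counts in a library, and in the smallest library 3 counts of any gene are 50.2 CPM.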
